A study of Mus musculus with 8 samples.

Results

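Cd28 and 7 genes of the costimulatory system it belongs to were followed in adipose tissue macrophages sorted by a reporter signal of adipocyte mitochondria. The 8 genes are the receptor genes Cd28 and Ctla4, the ligand genes Cd80, Cd86, Icosl, Cd274 and Pdcd1lg2, and Cd40, whose product is a receptor on antigen-presenting cells. They were chosen by name out of 41388 genes, with the difference between these same libraries already known, so their differences between the groups are given below as a description and carry no test. All 8 were among the 13933 genes that passed the low-count filter.

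Each of 4 male MitoFat mice on normal chow gave 2 populations from its epididymal white adipose tissue (eWAT), a visceral fat depot. The MitoFat strain carries a reporter of mitochondria that is specific to adipocytes, and every library of both groups comes from such a mouse. The tissue was digested with collagenase type II, and its stromal vascular fraction was sorted for viable leukocytes (CD45+) that bore the macrophage proteins F4/80 and CD64. Cells without the reporter signal are mtD2- (4 libraries) and cells with it, having taken up adipocyte mitochondria, are mtD2+ (4 libraries). Below, with mitochondria means with that signal. The sources used here do not give the age of the mice, the driver of the reporter or how many cells were sorted. Each library is bulk RNA of a sorted population, so fewer cells of a type and less RNA per cell cannot be told apart.

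T cells need a second signal beside antigen, and CD28 is the best known receptor for it. It binds CD80 and CD86 on antigen-presenting cells, and CTLA-4 binds the same ligands more tightly and restrains the response. ICOS ligand, PD-L1 (Cd274) and PD-L2 (Pdcd1lg2) belong to the same B7 family and bind ICOS and PD-1, while CD40 on a macrophage, dendritic cell or B cell receives CD40 ligand from T cells and is a known inducer of CD80 and CD86. CD28 is known chiefly from T cells, so whether its RNA in sorted macrophages followed the RNA of T cell genes was examined library by library.

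CD28, CTLA-4 and ICOS contact their ligands through a loop of their immunoglobulin domain, and the codons of that loop are shown because Cd28 and Ctla4, whose products bind the same ligands, share it nearly base for base while Icos does not. Capitals mark the 18 bases (6 codons) of the loop and lower case the 6 bases on each side, read from GENCODE M21 transcripts on the plus strand of GRCm38, all within the second exon of each transcript.
Cd28, chr1:60763269-60763298: gagttcATGTACCCTCCGCCTTACctagac
Ctla4, chr1:60912707-60912736: gaactcATGTACCCACCGCCATACtttgtg
Icos, chr1:60993977-60994006: tccattTTTGACCCACCTCCTTTTcaagaa
Within the loop Ctla4 had the same base as Cd28 at 16 of 18 positions and the same codon at 4 of 6, and Icos had 11 of 18 bases and 1 of 6 codons. The longest run of identical bases between any transcripts of Cd28 and Ctla4 was 13, and over all 28 pairs of the 8 genes it was 36.

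The 3 receptor genes stand in a row on chromosome 1. Cd28 (ENSMUSG00000026012) spans 60716800 to 60773359 on the plus strand of GRCm38, Ctla4 begins 114 kb after its end and spans 60887000 to 60915832, and Icos begins 62.1 kb further on. Cd274 (chromosome 19, 29367455 to 29388095) and Pdcd1lg2 (29410919 to 29471161) are also neighbours, 22.8 kb apart on the plus strand. Cd86 (36603869 to 36666081, minus strand) and Cd80 (38455561 to 38496335, plus strand) share chromosome 16 and lie 1790 kb apart, Cd40 spans 165055627 to 165072948 of chromosome 2 and Icosl 78069302 to 78083913 of chromosome 10, both on the plus strand. The values below are counts of reads over all exons of a gene, so they do not tell its isoforms apart. An antisense gene shares 511 exonic bases with Cd274, and since the sources used here do not give the strand setting of the counting, its reads cannot be told apart from those of Cd274.

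The libraries held 18462287 to 27464399 gene-assigned counts, and the scaling factors of the 2 groups overlapped. Levels are given as CPM, a gene's counts scaled to the library's total over the tested genes after TMM scaling (a correction for a few genes taking much of a library), as mean ± SD of each group's 4 libraries. In the fit across all genes, edgeR's quasi-likelihood test with the mouse as a block, genes with a Benjamini-Hochberg adjusted p under 0.05 were called. Of the genes named below as called, Cd28, Birc3, Stat3, Batf3, Dnaja1, Col1a1, Col1a2 and Col3a1 also passed without the mouse block, and the others did not. Called higher in mtD2+ were 519 genes (3.72% of those tested) and called lower 248 (1.78%). Macrophage markers, the sort proteins among them, were abundant in every library: their 12 genes summed to between 20210 and 23650 CPM in mtD2- and between 16950 and 20830 CPM in mtD2+. Among them Adgre1, the gene of F4/80, fell from 685.4 ± 94.6 to 465.6 ± 41.7 CPM (log2 fold change -0.55, SE 0.12, edgeR adjusted p = 0.0336), a call that was lost without mouse 1, 3 or 4. Fcgr1, the gene of CD64, was also lower in each mouse, at 159.6 ± 3.05 and 118.4 ± 15.2 CPM without overlap. It did not pass (log2 fold change -0.44, SE 0.11, edgeR adjusted p = 0.0554).

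Cd28 RNA was abundant in all 8 macrophage libraries and higher with adipocyte mitochondria in each mouse. In mtD2- it stood at 83.6, 61.6, 35.1 and 60.5 CPM in mice 1 to 4, and in mtD2+ at 240.2, 144.6, 133.9 and 179.6 CPM. The lowest mtD2+ library lay above the highest mtD2- library, and mouse 1 was the highest and mouse 3 the lowest within both groups. The group means were 60.2 ± 19.8 and 174.6 ± 47.9 CPM (SD, n = 4 each), a 2.95-fold difference with a fitted log2 fold change of 1.56 (SE 0.13). Per mouse the log2 ratio was 1.52, 1.23, 1.93 and 1.57. The raw counts behind these values ran from 835 to 5269, so that counting error is small beside the spread between mice.

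Of the receptor genes beside it, Ctla4 was scarce and Icos was lower than Cd28 in every library. Ctla4, the inhibitory counterpart of Cd28, had 3, 5, 18 and 21 counts in mtD2- of mice 1 to 4 and 14, 3, 10 and 5 counts in mtD2+. The groups overlapped throughout, and the fitted log2 fold change of -0.31 had an SE of 0.97, so a difference was not detectable at this depth. Icos, the third receptor of the row and not one of the 8 genes, lay between 2.81 and 15.6 CPM over the 8 libraries. It is named outside the rule for list genes because its locus adjoins Ctla4, and its log2 fold change was 0.60 (SE 0.30, edgeR adjusted p = 0.274). Per kilobase of counted exon Icos lay between 0.818 and 4.56 CPM, below Cd28 in every library.

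**Figure D1:**
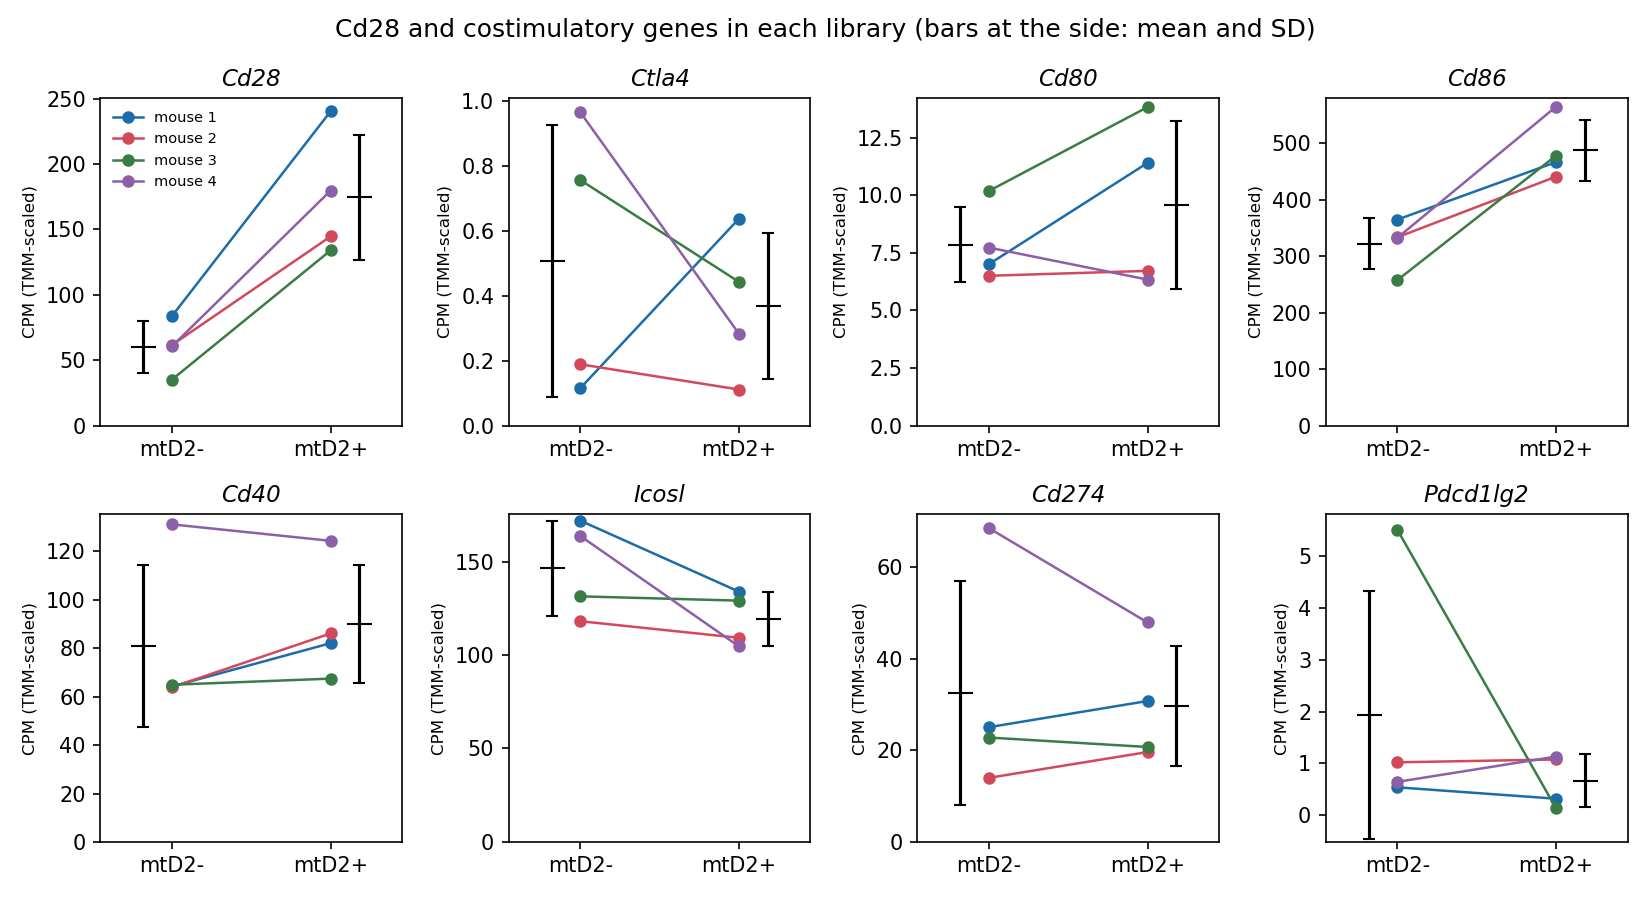
CPM (TMM-scaled) of the 8 genes in each library, mtD2- on the left and mtD2+ on the right of each panel, with a line joining the libraries of a mouse and bars at the side for the mean and SD of 4 libraries. Each panel has its own axis: the groups are apart in Cd28 (35.1 to 83.6 against 133.9 to 240.2 CPM) and Cd86, and overlap in the other 6 genes.

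Genes of the T cell receptor complex did not follow Cd28 across the libraries. Of Cd3e, a chain of the CD3 complex that every mature T cell needs, mice 1 to 4 had 0, 19, 27 and 19 counts in mtD2- and 0, 0, 0 and 11 counts in mtD2+. Cd3e was thus at 0 in 4 libraries, among them the mtD2+ libraries of mice 1 to 3, which held 5269, 3896 and 3023 Cd28 counts. A count of 0 allows up to 3 counts, which is 0.111 to 0.170 CPM at these depths.

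The other chains were as low. Cd3d had 35, 12, 26 and 1 counts in mtD2- and 10, 19, 0 and 17 in mtD2+. Cd3g had counts in 1 mtD2- library (35, mouse 3) and in all 4 mtD2+ libraries (13, 6, 14 and 4), and Cd247, the zeta chain, had 0, 31, 7 and 43 against 26, 36, 0 and 17. Trac, the constant region of the T cell receptor alpha chain, was at 0 in 6 of the 8 libraries, with 51 counts in mtD2- of mouse 3 and 7 in mtD2+ of mouse 4. No chain was present in every library, and none rose from mtD2- to mtD2+ in all 4 mice as Cd28 did.

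Summed over 9 genes of T cell receptor, CD3 and CD8 chains (Cd3e, Cd3d, Cd3g, Cd247, Trac, Trbc1, Trbc2, Cd8a and Cd8b1), the libraries of mice 1 to 4 held 1.58, 2.38, 6.14 and 3.27 CPM in mtD2- and 2.37, 2.63, 0.620 and 3.45 CPM in mtD2+. The mtD2- library of mouse 3 had the most chain RNA (146 counts) and the least Cd28. The mtD2+ library of mouse 3 had the least chain RNA (14 counts, 8 of the 9 genes at 0), and its Cd28 level of 133.9 CPM lay above every mtD2- library. Each count of these 9 genes was accompanied by 53.0, 25.8, 5.72 and 18.5 Cd28 counts in mtD2- and by 101.3, 54.9, 215.9 and 52.0 in mtD2+. The Cd28 difference within mouse 3 was the widest of the 4 (log2 ratio 1.93), where the chain genes were at 6.14 CPM in mtD2- and 0.620 CPM in mtD2+.

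**Figure D2:**
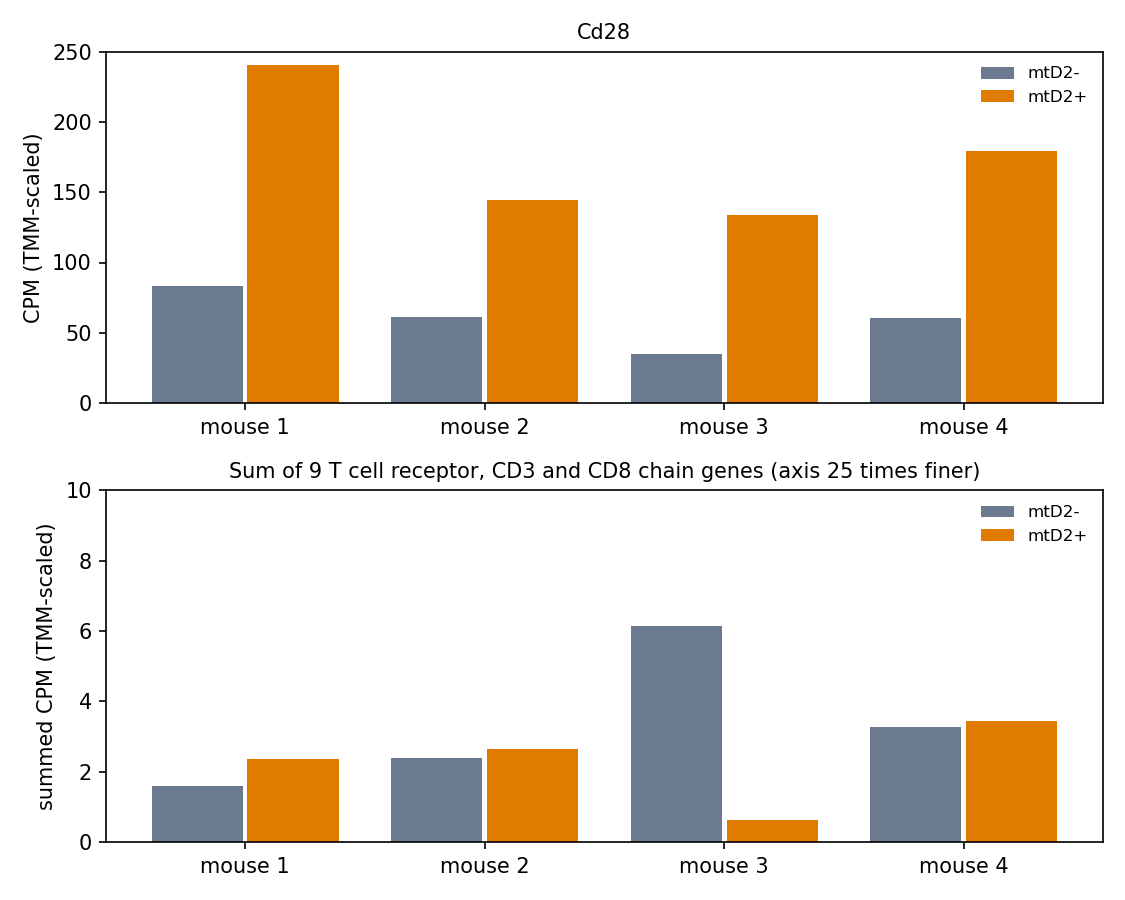
CPM (TMM-scaled) of Cd28 in the upper panel and of 9 summed T cell receptor, CD3 and CD8 chain genes in the lower panel, for both populations of each mouse, with each bar 1 library and both axes starting at 0. The lower axis is far finer: Cd28 lay between 35.1 and 240.2 CPM and the chain genes together between 0.620 and 6.14 CPM, with their highest bar where Cd28 was lowest.

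A wider list of T cell genes was also compared. Of its 24 genes 10 could be tested, and edgeR called 0 of them, with 1 at an unadjusted p under 0.05, 1 called by DESeq2 and 0 by limma voom. The gene DESeq2 called was Il7r, the interleukin-7 receptor chain, which stood at 3.69 ± 2.51 and 7.74 ± 4.30 CPM in mtD2- and mtD2+ (log2 fold change 1.17, SE 0.31, edgeR adjusted p = 0.0654). Like Cd28, Il7r was higher in mtD2+ in each mouse (log2 ratios 1.15, 1.01, 1.68 and 0.88). Foxp3, which was not tested, had 3, 0, 0 and 2 counts in mtD2- and 19, 1, 9 and 5 in mtD2+. These were more in each mouse, but in mice 2 and 4 by a few counts only, and a count of 0 allows up to 3. Of the 10 tested genes 7 had a positive fitted log2 fold change. Cd3e had a fitted log2 fold change of -3.55 (SE 1.65, edgeR adjusted p = 0.25), Cd3d -0.47 (SE 1.56, edgeR adjusted p = 0.892) and Cd247 -0.02 (SE 0.85, edgeR adjusted p = 0.994). The summed list lay between 36.1 and 69.3 CPM in mtD2- and between 61.5 and 69.3 CPM in mtD2+. Most of it was Cd4 (18.9 to 39.4 CPM) and Cd2 (4.85 to 22.2 CPM, log2 fold change 0.52, SE 0.42, edgeR adjusted p = 0.502), and Cd4 is also known from macrophages and dendritic cells. The share of Cd28 RNA that came from any T cells in the sort was not tested beyond these counts.

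With edgeR no marker gene of NK, B, plasma, mast or eosinophil cells, which a CD45 gate could admit, was called higher. Among all tested genes 3.72% were called higher and 1.78% lower. NK and innate lymphoid cell genes summed to 58.6 to 97.1 CPM in mtD2- and 55.3 to 78.4 in mtD2+, with the NK receptor gene Ncr1 at 0 in 4 of 8 libraries. Of their 4 tested genes edgeR called 0 (0 at an unadjusted p under 0.05, 0 by DESeq2 and 0 by limma voom). The list members named were Il1rl1 (log2 fold change -0.32, SE 0.19), Klrk1 (0.26, SE 0.36) and Nkg7 (0.43, SE 0.88). B cell genes were lower with mitochondria, 56.5 to 64.9 against 27.6 to 46.2 CPM, and 1 of 7 tested fell: Cd79b, a chain of the B cell receptor, from 39.9 ± 11.6 to 20.7 ± 3.61 CPM (log2 -0.92, SE 0.21, edgeR adjusted p = 0.0419), a call lost without mouse 1, 2 or 3. Ebf1 (log2 -1.12, SE 0.44, edgeR adjusted p = 0.18) and Cr2 (1.25, SE 0.95, edgeR adjusted p = 0.479) did not pass with edgeR. In this list DESeq2 called 2 genes, Ebf1 among them (adjusted p = 0.0476), and limma voom called 1.

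Plasma cell genes lay at 33.5 to 56.8 and 40.7 to 50.5 CPM, and of 3 tested edgeR called 0 (0 at an unadjusted p under 0.05, 0 by DESeq2 and by limma voom). The 3, which made up most of the sum, were Sdc1 (log2 fold change 0.77, SE 0.67), Prdm1 (0.13, SE 0.31) and Tnfrsf17 (0.08, SE 0.20). The mast cell list reached 10.98 CPM in mtD2- and 13.8 in mtD2+, and of 4 tested genes edgeR called 0 (0 at an unadjusted p under 0.05), DESeq2 1 and limma voom 0. Its named genes, with mtD2- means of 0.459, 0.454 and 0.669 CPM, were Tpsb2 (log2 3.01, SE 1.37, edgeR adjusted p = 0.234), Kit (2.09, SE 1.98) and Cma1 (1.07, SE 1.65). Eosinophil genes summed to no more than 2.05 CPM in a library, and none of the 6 could be tested.

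Cd86, the main ligand gene for CD28 in these libraries, was the other of the 8 genes whose groups stood apart. It was at 364.6, 333.3, 257.4 and 332.3 CPM in mtD2- and at 466.4, 440.6, 477.9 and 564.4 CPM in mtD2+ of mice 1 to 4. All 4 mice were higher with mitochondria, and mouse 3, the lowest of the mtD2- libraries, had the widest step (log2 ratio 0.89, against 0.36, 0.40 and 0.76 in mice 1, 2 and 4). The means were 321.9 ± 45.5 and 487.3 ± 53.7 CPM, a 1.52-fold difference with a fitted log2 fold change of 0.60 (SE 0.12). Leaving out any 1 mouse moved this value between 0.515 and 0.687 and took Cd86 out of the called genes, whereas Cd28 (1.449 to 1.674) stayed among them each time.

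Cd80, which binds the same 2 receptors as Cd86, was far lower and its groups overlapped. It stood at 7.00, 6.50, 10.2 and 7.73 CPM in mtD2- and at 11.4, 6.72, 13.8 and 6.34 CPM in mtD2+. Mice 1 and 3 were higher with mitochondria (log2 ratios 0.70 and 0.44), mouse 2 nearly level (0.05) and mouse 4 lower (-0.29). The fitted log2 fold change was 0.23 (SE 0.27), so the 2 ligand genes of CD28 were given different steps by the fit, though the difference between them was not tested.

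Cd40, the receptor for T cell help, lay at 64.2, 63.9, 64.9 and 131.2 CPM in mtD2- and at 82.1, 86.1, 67.5 and 124.4 CPM in mtD2+. Mouse 4 was the highest in both groups, and without it the mtD2+ libraries all lay above the mtD2- libraries. The means were 81.1 ± 33.4 and 90.0 ± 24.3 CPM and the fitted log2 fold change 0.19 (SE 0.12).

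Icosl, the ligand gene of ICOS, went the other way in each mouse. It was at 171.9, 118.1, 131.4 and 163.7 CPM in mtD2- and at 133.9, 109.2, 129.1 and 104.6 CPM in mtD2+, with log2 ratios of -0.36, -0.11, -0.03 and -0.65. The groups overlapped, since the mtD2- library of mouse 2 lay below 2 of the mtD2+ libraries. The means were 146.3 ± 25.7 and 119.2 ± 14.5 CPM and the fitted log2 fold change -0.29 (SE 0.13).

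The PD-1 ligand genes did not part the groups. Cd274 lay at 25.1, 14.0, 22.8 and 68.5 CPM in mtD2- and at 30.8, 19.6, 20.7 and 47.9 CPM in mtD2+. Mouse 4 again was the highest in both groups, mice 1 and 2 were higher in mtD2+ (log2 ratios 0.30 and 0.49) and mice 3 and 4 lower (-0.14 and -0.52). The fitted log2 fold change of 0.03 (SE 0.19) had no fixed sign under other settings. Pdcd1lg2 had 14, 27, 131 and 14 counts in mtD2- and 7, 29, 3 and 20 in mtD2+. Its fitted log2 fold change of -0.93 (SE 1.08) rested on the 131 counts of mouse 3 and was 0.071 without that mouse.

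Together, 2 of the 8 genes (Cd28 and Cd86) were among the genes called higher, where 3.72% of all tested genes were, and 0 were among those called lower. The same 2 were the ones whose groups did not overlap, which was so for 6.55% of all tested genes in the higher direction and for 6.01% in the lower direction. Nothing is read from these shares, because this contrast was known when the genes were chosen. The median fitted log2 fold change of the 8 was 0.11, beside -6e-04 over all tested genes. The summed RNA of the 8 genes was higher with mitochondria in each mouse, with a log2 ratio of 0.43, 0.43, 0.68 and 0.43 in mice 1 to 4. Of the 8 genes only Cd28 and Cd86 were higher in all 4 mice, and Icosl was lower in each. The sum therefore does not stand for the other genes.

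To compare the genes with each other, CPM was divided by the counted exon length in kilobases. Per kilobase, the mtD2- libraries ranked Cd86 first (87.9 ± 12.4), then Icosl (53.1 ± 9.31), Cd40 (23.8 ± 9.81), Cd28 (9.83 ± 3.24), Cd274 (8.998 ± 6.75), Cd80 (4.62 ± 0.957), Pdcd1lg2 (1.17 ± 1.46) and Ctla4 (0.218 ± 0.18). Neighbours in this order whose ranges over libraries overlapped were Cd28 and Cd274, Cd274 and Cd80, and Pdcd1lg2 and Ctla4. In mtD2+ the levels per kilobase were 133.1 ± 14.7 for Cd86, 43.3 ± 5.25 for Icosl, 28.5 ± 7.83 for Cd28, 26.4 ± 7.12 for Cd40, 8.22 ± 3.62 for Cd274, 5.63 ± 2.15 for Cd80, 0.404 ± 0.312 for Pdcd1lg2 and 0.158 ± 0.0965 for Ctla4. There the ranges of Icosl and Cd28, of Cd28 and Cd40, of Cd274 and Cd80, and of Pdcd1lg2 and Ctla4 overlapped. Cd28 thus stood below Cd40 in mtD2-, and in mtD2+ it was above Cd40 in 2 of the 4 libraries.

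**Figure D3:**
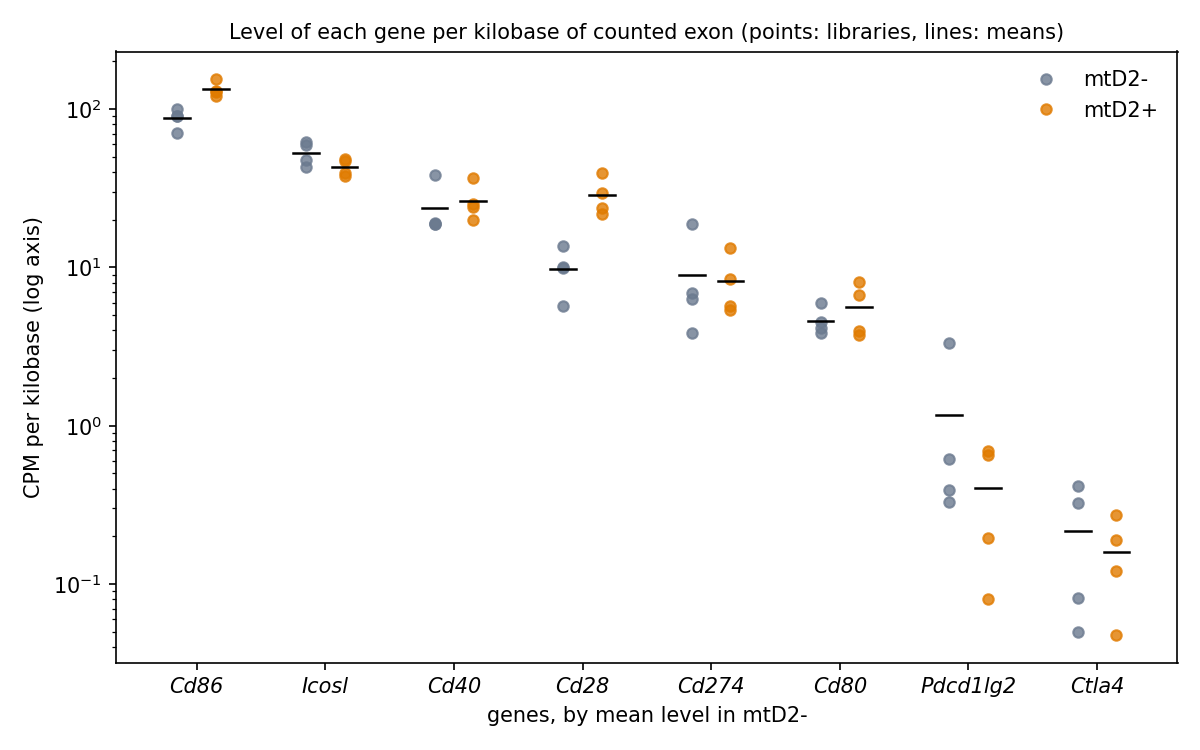
CPM per kilobase of counted exon on a log axis for the 8 genes in order of their mtD2- mean, with a point for each library and a line for each group mean. Cd86 is the highest in both groups (87.9 and 133.1), Ctla4 the lowest (0.218 and 0.158), and the Cd28 points move from the range of Cd274 to that of Cd40.

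Other genes of costimulation were taken from lists chosen with earlier results of these data known, and up to 3 tested genes with the smallest unadjusted p are named for each. The counts of genes that rose or fell stand beside 3.72% of all tested genes called higher and 1.78% called lower. Of the 8 other members of the CD28 and B7 families, 6 were tested, 1 rose and 1 fell, with a median log2 fold change of 0.28. The gene that rose was Vsig4, a B7-related complement receptor of tissue macrophages that can restrain T cells. It stood at 21.3, 22.0, 24.1 and 14.9 CPM in mtD2- and at 36.0, 58.4, 38.8 and 28.7 CPM in mtD2+, without overlap (log2 0.95, SE 0.17, edgeR adjusted p = 0.016). The gene that fell was Vsir, which encodes the inhibitory B7 relative VISTA, at 325.1, 343.1, 353.1 and 427.7 CPM against 243.0, 279.3, 235.0 and 274.0 CPM (log2 -0.49, SE 0.11, edgeR adjusted p = 0.0358). Both calls were lost without the mouse block, the call of Vsir was lost without any 1 mouse and that of Vsig4 without mouse 1, 2 or 3. Cd276, the B7-H3 gene, was at 5.03 ± 2.71 and 2.29 ± 2.23 CPM (log2 -1.70, SE 0.83, edgeR adjusted p = 0.264).

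Of 15 genes of TNF-family costimulation, a system of ligands and receptors that acts beside CD28, 10 were tested, 1 rose and 0 fell. The gene that rose was Tnfrsf25, the receptor for TL1A, from 19.1 ± 6.30 to 33.1 ± 11.6 CPM (log2 0.80, SE 0.17, edgeR adjusted p = 0.0324), a call lost when any of the mice or the mouse block was left out and when library totals alone were the scaling (adjusted p = 0.0525). Tnfsf9, the ligand gene of 4-1BB, was the most abundant of the list that the rule names. It lay at 358.1 ± 209.7 CPM in mtD2- and 561.9 ± 98.5 CPM in mtD2+, and did not pass edgeR (log2 0.83, SE 0.22, adjusted p = 0.0689). It did pass DESeq2 and limma voom, and edgeR with either other low-count filter or without mouse 4. Tnfsf14, the gene of LIGHT, was at 5.10 ± 2.56 and 8.95 ± 2.18 CPM (log2 0.91, SE 0.36, edgeR adjusted p = 0.171).

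Genes that carry the CD28 signal inside a T cell were also compared, and not every one of them had counts in every library. All 16 were tested with edgeR, 0 passed (1 at an unadjusted p under 0.05), DESeq2 and limma voom each called 1, and the median log2 fold change was 0.06. The gene those tools called, and edgeR also called with either other low-count filter or without mouse 2, was Nfatc2, a calcium-regulated transcription factor, at 109.2 ± 11.3 and 163.1 ± 25.5 CPM without overlap (log2 0.57, SE 0.15, edgeR adjusted p = 0.0615). Ptpn6, the phosphatase SHP-1 that inhibitory receptors recruit, was at 360.6 ± 32.9 and 307.2 ± 16.7 CPM (log2 -0.23, SE 0.11, edgeR adjusted p = 0.274). Pik3ca, a catalytic subunit of PI3 kinase, was at 50.3 ± 4.68 and 41.4 ± 9.15 CPM (log2 -0.30, SE 0.17, edgeR adjusted p = 0.338).

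Genes of CD40 signalling changed in 1 direction among those that passed. All 15 were tested, 4 rose and 0 fell, beside 3.72% of all tested genes called higher, and the median log2 fold change was 0.30. Birc3, which encodes an inhibitor of apoptosis that joins CD40 with its TRAF adaptors, stood at 280.4, 204.2, 244.1 and 324.9 CPM in mtD2- and at 491.5, 371.5, 465.7 and 460.3 CPM in mtD2+ (log2 0.78, SE 0.11, edgeR adjusted p = 0.00768). Its groups did not overlap, and the call was lost without mouse 1 or 3. The NF-kB subunit genes Rel (88.2 ± 28.4 to 156.0 ± 31.4 CPM, log2 0.86, SE 0.15, edgeR adjusted p = 0.0139) and Nfkb1 (167.0 ± 28.6 to 250.8 ± 54.3 CPM, log2 0.58, SE 0.10, edgeR adjusted p = 0.016) also rose, and held without mouse 4 but not without another. The fourth, Tnfaip3, which encodes the NF-kB inhibitor A20 and falls outside the naming rule, rose by a log2 of 0.75 (SE 0.14, edgeR adjusted p = 0.0188). Without mouse 1 or without mouse 3 the count of called genes in this list was 0, without mouse 4 it was 5, and without the mouse block it was 1.

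Of 14 genes known to control the B7 ligands from outside and inside the cell, 2 rose and 0 fell, with a median log2 fold change of 0.17. Of all tested genes 3.72% were called higher and 1.78% lower. Stat3, the transcription factor downstream of interleukin-10 and interleukin-6, was at 302.3, 280.4, 300.7 and 399.7 CPM in mtD2- and at 597.3, 491.0, 625.1 and 690.7 CPM in mtD2+. No libraries overlapped, and the call (log2 0.91, SE 0.10, edgeR adjusted p = 0.00323) held without each mouse. Irf1, an interferon-induced transcription factor known to act on Cd274, was at 578.9, 314.5, 478.1 and 771.2 CPM in mtD2- and at 1039, 748.8, 955.4 and 787.6 CPM in mtD2+. Its step was close to nothing in mouse 4, and the call (log2 0.78, SE 0.18, edgeR adjusted p = 0.0442) was lost without mouse 1, 2 or 3. Il10, the cytokine gene whose product lowers CD86 on macrophages, was at 50.2 ± 18.7 and 87.3 ± 11.5 CPM (log2 0.86, SE 0.22, edgeR adjusted p = 0.0564). It passed DESeq2 (adjusted p = 0.000535) and limma voom (adjusted p = 0.0287), and passed edgeR with either other low-count filter or without mouse 4.

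Because Irf1 RNA rose while the Cd274 groups overlapped, the stretch of the Cd274 promoter that holds an interferon response core is shown, from the RefSeq promoter table (GRCm38.p6, plus strand). Capitals mark the match, which reads as the core GAAANNGAA on the opposite strand and begins 76 bases before the transcription start.
Cd274, chr19:29367352-29367380: actgggtggcTTCGGTTTCacagacagcg
The table held promoters of 5 of the 8 genes (Ctla4, Cd80, Icosl, Cd274 and Pdcd1lg2), each 250 bases before to 50 after the start, and 4 motifs were searched in them on both strands. The interferon core occurred in Cd274 and Ctla4 and in 8.56% of all 32851 promoters. The AP-1 site TGANTCA occurred in Cd80 and in 7.81% of all promoters. The STAT site TTCNNNGAA (8.30% of all) and the NF-kB core GGANTTTCC (1.25%) had no match in the 5 windows. A match is a description of letters only.

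**Figure D4:**
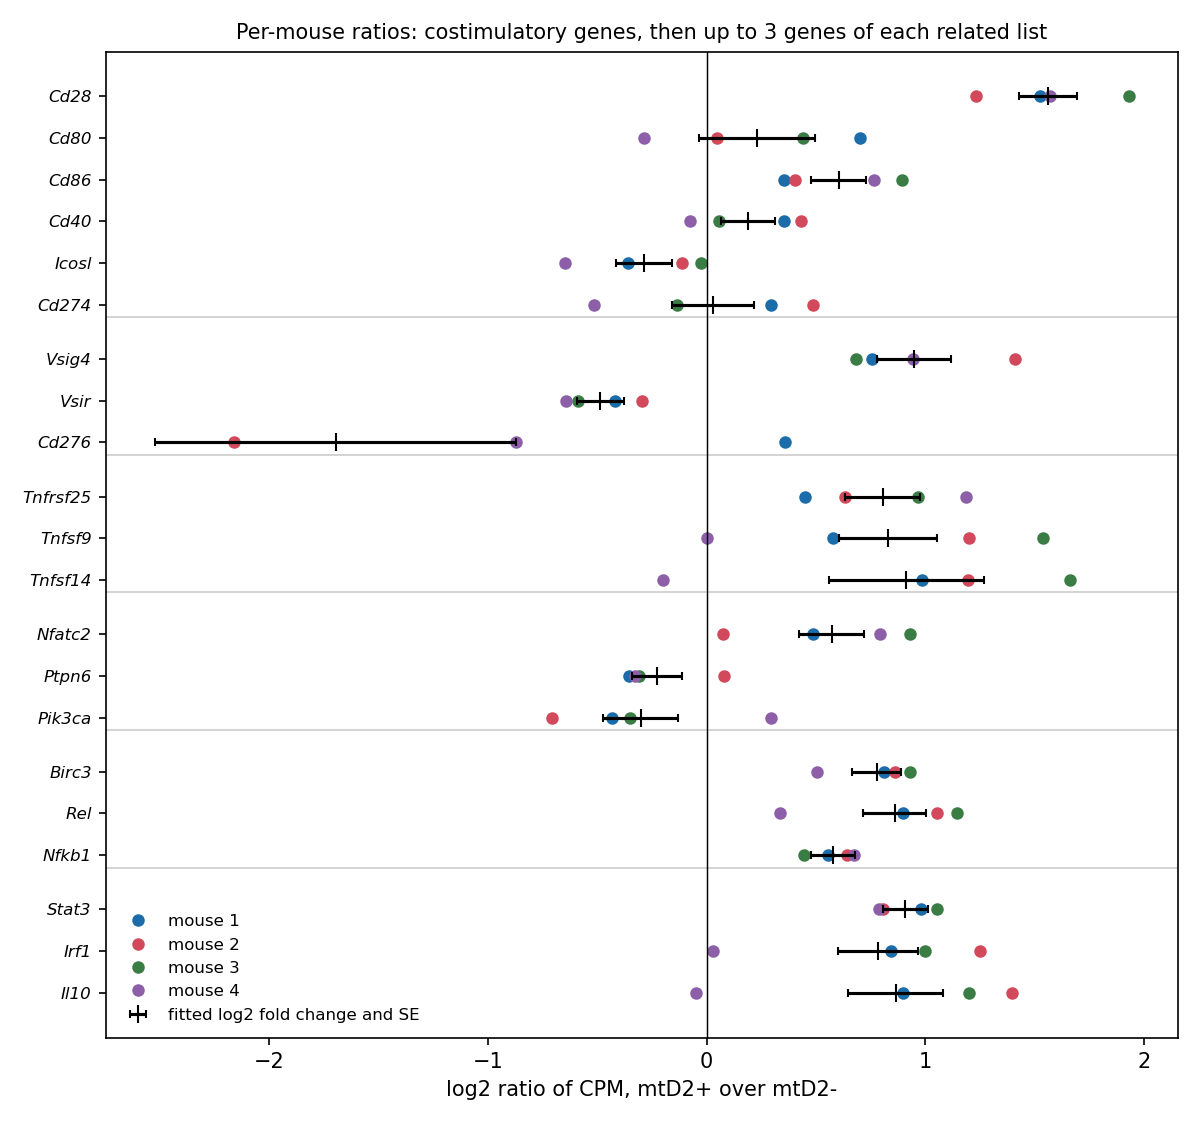
Log2 ratio of CPM in mtD2+ over mtD2- for each mouse (coloured points), with the fitted log2 fold change and its SE in black, for 6 of the 8 costimulatory genes and then for up to 3 genes of each related list, parted by grey lines. Ctla4 and Pdcd1lg2 are left out for their low counts, and mouse 3 of Cd276 has no point because a library had fewer than 4 counts. The fitted value of Cd28 (1.56) lies farthest right, and mouse 4 lies at or near 0 in Tnfsf9, Irf1 and Il10.

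Some values moved with the groups beside these results, and their part in them was not tested. For the counts given here, 3.72% of all tested genes were called higher and 1.78% lower. Fibroblast genes summed to 751 to 1314 CPM in mtD2- and to 206 to 271 CPM in mtD2+, and 6 of 8 fell, among them Col1a2 (log2 -2.56, SE 0.14, edgeR adjusted p = 0.000327), Col1a1 (log2 -2.51, SE 0.19, edgeR adjusted p = 0.0012) and Col3a1 (log2 -2.16, SE 0.19, edgeR adjusted p = 0.0014). Genes known to respond to tissue dissociation summed to 11580 to 24740 CPM in mtD2- and 22070 to 25180 CPM in mtD2+, and 7 of 18 rose, among them the chaperone genes Dnaja1 (log2 0.94, SE 0.12, edgeR adjusted p = 0.00486) and Hsp90aa1 (log2 0.82, SE 0.13, edgeR adjusted p = 0.00895) and the stress gene Ppp1r15a (log2 0.98, SE 0.17, edgeR adjusted p = 0.0162). Among the mtD2- libraries, that of mouse 4 stood highest in this sum, in Cd40, in Cd274 and in the summed genes of CD40 signalling. Without the mouse block 1 of the 18 was called, and on leaving out a mouse between 1 and 13 were. In mouse 4 the dissociation sum was level between the groups (log2 ratio -0.01), but its genes were not all level. There the log2 ratio was 0.90 for Dnaja1, 0.70 for Hsp90aa1 and 0.31 for Ppp1r15a, and -1.13 for Junb.

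Dendritic cells carry CD86 at high levels, so their genes are given beside it. The list of 11 summed to 221 to 333 CPM in mtD2- and 294 to 341 CPM in mtD2+. Of 9 tested, edgeR called 0 higher and 1 lower, DESeq2 called 3 genes and limma voom 1. Over all tested genes edgeR called 3.72% higher and 1.78% lower. The gene that fell was Batf3, a transcription factor of cross-presenting dendritic cells, from 45.7 ± 5.35 to 27.6 ± 3.00 CPM (log2 -0.72, SE 0.15, edgeR adjusted p = 0.0278), which did not pass when any of the mice was left out. Cd209a was at 122.9 ± 16.9 and 162.2 ± 18.4 CPM (log2 0.40, SE 0.14, edgeR adjusted p = 0.138) and Ccl22 at 11.8 ± 7.16 and 19.9 ± 11.04 CPM (log2 0.88, SE 0.30, edgeR adjusted p = 0.121), and both passed DESeq2. The defining progenitor receptor Flt3 was at 0 in 2 of 8 libraries. Of the other macrophage genes, Mertk, a receptor for dying cells, rose (log2 0.51, SE 0.11, edgeR adjusted p = 0.0342) and C1qb, a complement chain, fell (log2 -0.47, SE 0.11, edgeR adjusted p = 0.0381). The call of Mertk was lost on leaving out any of the mice and with library totals alone (adjusted p = 0.0517), and that of C1qb without mouse 1, 3 or 4.

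The genes whose levels ran most like those of Cd28 over the 8 libraries were ranked by Pearson's r of log2 CPM among 9262 protein-coding genes. This is a description without a test: the libraries come in pairs from 4 mice, and a difference between the groups is part of r. The 5 highest were Spaca6 (r = 0.983), Slf2 (0.98), Ifit1 (0.974), Aph1c (0.969) and Map3k8 (0.967). Map3k8 encodes a kinase that CD40 and Toll-like receptors use, and Ifit1 is an interferon-induced gene. With the group means removed, the 5 highest were Noct (0.967), Slf2 (0.964), Fabp5 (0.956), Dyrk2 (0.943) and Ugdh (0.936). Cd86 had r = 0.938 with Cd28 over the libraries and 0.71 with the group means removed.

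For Cd86 the 5 most alike were Baiap2l1 (0.988), Epha1 (0.988), Nktr (0.981), Vav2 (0.977) and Hnrnpdl (0.975). For Cd40 they were Cnppd1 (0.984), Oat (0.956), Sertad1 (0.955), Selenok (0.951) and Marcksl1 (0.951). For Cd274 the 4 highest were Alas1 (0.964), Nab2 (0.952), Slamf8 (0.945) and Lgals3 (0.941). None of these genes was among the 5 most like Cd28.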

How the data were processed

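Per the labels' protocols, RNeasy Micro columns and the Clontech SMARTer Ultra-Low chemistry were used, and all libraries shared a run and lane per the labels. Per the submitters' processing notes the authors used bcl2fastq, STAR 2.0.4b and featureCounts 1.45 of Subread on GRCm38; the sources used here do not give options or the strand setting. The authors deposited a raw read count, a CPM and an RPKM for each of 41388 genes, and per the file headers the counted length of each gene. Deposited counts alone entered the tests; the deposited CPM and RPKM were checked against them and not used further.

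Symbols came from GENCODE M21 (40340 genes matched, 1048 did not and took at most 0.4256% of a library). The test was that of edgeR 4.0.16 under R 4.3.3 (TMM, quasi-likelihood F test, mouse as block, then group) after its expression filter (minimum count 10, minimum total 15, proportion 0.7). The SE is the log2 fold change, mtD2+ over mtD2-, divided by the square root of F. Libraries are paired by the mouse ID that the labels give each of them: their deviations from the group means correlated at 0.039, 0.07, 0.145 and 0.251 for mice 1 to 4, against at most 0.058, 0.025, 0.014 and -0.01 with other mice, so by this measure pairing does not show in mouse 1. Each library of a group is a different mouse, and depth limits genes with few counts most.

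The 8 genes and all lists were chosen with earlier results of these data known. The text names the 8, up to 3 tested genes of each list with the smallest unadjusted p (all where 3 or fewer were tested), the CD3 chains and Trac, and the 5 genes most like Cd28, Cd86, Cd40 and Cd274 among protein-coding genes of at least 5 CPM (prior count 2); 1 gene that this rule takes is not reported here. Icos, Tnfaip3, Cd4, Ncr1, Flt3, Foxp3, Fcgr1, Junb and the other chain genes of T cells fall outside the rule and were chosen after their values were seen. Alternatives were no block, 3 scalings, 2 filters, DESeq2 1.42.0, limma voom (limma 3.58.1) and leaving out each mouse.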

Additional observations from a re-analysis of the deposited data

Results flagged for a closer look

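In each group of 4 libraries, the gap between the farthest library and its nearest neighbour was set against the range of the group (Dixon's test at its 95% critical value) for each of the 8 genes. Of the 16 groups 2 passed it, where chance alone passes about 1 in 20. Cd40 stood at 131.2 CPM in the mtD2- library of mouse 4, beside 63.9 to 64.9 CPM in the other mtD2- libraries. The same mouse was the highest for Cd40 in mtD2+ too (124.4 CPM). Pdcd1lg2 stood at 5.51 CPM (131 counts) in the mtD2- library of mouse 3, beside 0.539 to 1.02 CPM in the others, and at 0.133 CPM (3 counts) in the mtD2+ library of that mouse.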

How the results depend on the processing

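Cd28 was called higher under every alternative run. All runs drew on the libraries whose difference was known when the gene was chosen, so this describes the processing only. Without the replicate block the fit called 218 genes (147 higher, 71 lower) in place of 767 (519 and 248) and 1 of the 8 genes in place of 2, Cd86 being lost. DESeq2 called 1816 (1135 and 681). Leaving out each mouse gave 166 to 555 genes (120 to 432 higher, 46 to 123 lower) and 1 of the 8 each time. Scaling by library totals alone gave 407 higher and 349 lower, 53.8% higher against 67.7%, and kept both members called. The other settings called 772 (DESeq2 size factors), 774 (TMMwsp), 1051 (no low-count filter), 935 (1 CPM in 4 libraries) and 1066 (limma voom).

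The direction of Cd274 turned without the block (-0.132), with library totals (-0.027), with limma voom (-0.048) and without mouse 1 or 2 (-0.12 to 0.216 over the mice left out). On leaving out a mouse, the log2 fold change of Ctla4 ran from -1.094 to 0.236, of Pdcd1lg2 from -1.688 to 0.071, of Cd3d from -1.745 to 0.776, of Cd247 from -1.207 to 0.927, of Klrk1 from -0.106 to 0.596, of Nkg7 from -0.054 to 0.844, of Prdm1 from -0.158 to 0.47, of Tnfrsf17 from -0.033 to 0.269 and of Cma1 from -0.044 to 2.429. Cd247 was also at 0.022 without the block and 0.052 with the 1 CPM filter. The cause was not tested. Of 94 values for the 8 genes 82 kept direction and side of the threshold, 5 lost the call and 7 changed sign; of 520 for 44 list genes the numbers were 430, 58 and 12, and 20 gained the call. Depth limits Ctla4, Pdcd1lg2 and the T cell chains most.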
